A study of Mus musculus with 6 samples.

Results

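Mitochondria import nearly all of their proteins unfolded, fold them inside, and degrade those that fail to fold or assemble. The genes described here encode 10 parts of that machinery: the matrix chaperonin (Hspd1, Hspe1), the matrix Hsp70 and its J-domain partner (Hspa9, Dnaja3), the mitochondrial Hsp90 (Trap1), the matrix proteases (Lonp1, Clpp and the unfoldase Clpx) and the proteases of the inner membrane (Afg3l2, Yme1l1). They were taken by gene symbol from the 41709 genes of the deposited table, in which each symbol had its own row. All 10 were among the 11611 genes with a mean TPM (transcript count per length, scaled to the same sum in every library) of at least 1, the genes that were tested.

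RNA-seq was done on 6 tibialis anterior (TA) muscles of male C57BL/6J mice, 3 for LrpprcWT and 3 for LrpprcP27A. Each muscle had been electroporated with a plasmid coding for Flag-tagged mouse Lrpprc, either wild type (LrpprcWT) or a variant in which alanine replaces a proline (LrpprcP27A), and was collected 14 days later. Both plasmids were of the pCMV6 type, with the CMV promoter, and all muscles kept their endogenous Lrpprc, so that reads of the plasmid and of the endogenous gene cannot be told apart in these values. The study used young and old mice, and the labels of these libraries do not give the age. One TA of a mouse received LrpprcWT and the contralateral TA received LrpprcP27A, and both groups carry the same library numbers, given here as replicates 1, 2 and 3. Lrpprc, which binds and stabilises the messenger RNAs of the mitochondrial genome, stood at 35.1, 37.0 and 75.2 TPM in the LrpprcWT libraries and at 26.9, 29.7 and 26.0 TPM in the LrpprcP27A libraries, a log2 difference of -0.72 ± 0.26 (SE, limma adjusted p = 0.0652, and 0.00243 with the replicate number as a block). After the median-of-ratios scaling described below it was -0.36 (limma adjusted p = 0.331, and 0.245 with the block).

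When unfolded proteins accumulate in mitochondria, cells can raise transcription of several of these genes, a programme known as the mitochondrial unfolded protein response, for which the factors Atf4, Atf5 and Ddit3 have been described. Hspd1 and Hspe1 also belong to the heat shock genes and are driven from a shared promoter between them. In skeletal muscle this machinery maintains the respiratory chain, whose subunits come from both the nuclear and the mitochondrial genome.

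A TPM value is a share of all transcripts in a library, so it moves with every abundant transcript. The 37 genes of the mitochondrial genome held 40.7% ± 4.59 (SD, n = 3) of the TPM in LrpprcWT and 45.2% ± 0.953 (SD, n = 3) in LrpprcP27A. The ribosomal RNA gene Rn18s-rs5 stood at 8874 to 17614 TPM in LrpprcWT and at 37023 to 44435 TPM in LrpprcP27A. Nuclear protein-coding genes held 56.3% ± 4.22 against 49.2% ± 1.29, and the median log2 difference of all 11611 tested genes was -0.32. The differences of the 10 members, and those of some other genes and lists, are therefore also given after median-of-ratios scaling. That scaling divides each library by its median ratio to the mean profile and left a median over all genes of -0.0047. Depth cannot be read from TPM values, so no counting error is given.

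The promoter sequences of the members that the comparisons turn on are shown first. Of the 10 genes, 8 had a RefSeq promoter window of 300 bases, from 250 before to 50 after a start, in 9 windows in all, and none was found for Hspa9 and Afg3l2. The Hspd1-Hspe1 interval is the 107 bases between the starts of the GENCODE canonical transcripts of both genes, at 55127183 for Hspd1 and 55127291 for Hspe1, read on the plus strand of GRCm39 (chr1:55127184-55127290), with Hspe1 to the right and Hspd1 to the left. The gene bounds given below are wider, since other annotated transcripts start elsewhere. The capitals mark TTCTAGAA, a match to the heat shock element TTCNNGAA, and CTTCCGGAAG, which holds the ETS motif CCGGAAG on both strands and a second heat shock element match, TTCCGGAA, within the same letters.
Hspd1-Hspe1: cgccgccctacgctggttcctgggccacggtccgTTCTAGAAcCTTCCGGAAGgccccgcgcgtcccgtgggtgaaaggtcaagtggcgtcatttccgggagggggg
The next sequences are the 120 bases before the RefSeq starts of Clpx (chr9:65201422-65201541, plus strand) and Yme1l1 (chr2:23046397-23046516, plus strand), the members with the largest decreases, and of Trap1 (chr16:3895675-3895794, minus strand), the member with a cyclic AMP response element. The capitals mark an NRF1 match in Clpx, the ETS matches in Yme1l1 and the cyclic AMP response element (CRE) in Trap1.
Clpx: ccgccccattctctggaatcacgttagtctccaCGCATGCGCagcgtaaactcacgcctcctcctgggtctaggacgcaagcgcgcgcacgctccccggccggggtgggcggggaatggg
Yme1l1: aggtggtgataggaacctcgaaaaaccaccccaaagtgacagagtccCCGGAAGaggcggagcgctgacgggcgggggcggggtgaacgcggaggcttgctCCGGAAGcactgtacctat
Trap1: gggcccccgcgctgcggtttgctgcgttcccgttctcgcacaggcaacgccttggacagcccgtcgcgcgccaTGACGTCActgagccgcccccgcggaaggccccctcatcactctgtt

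Across the 8 genes, searched on both strands, the heat shock letters TTCNNGAA lay in the windows of 3 (Clpp, Hspd1, Hspe1) and in 8.52% of all 32851 windows of this length. The ETS motif lay in 5 (Clpp, Dnaja3, Hspd1, Hspe1, Yme1l1) against 8.86% of all windows. The NRF1 motif GCGCANGCG lay in 3 (Clpx, Dnaja3, Hspd1) against 6.25%. The CRE TGACGTCA lay in Trap1 alone against 1.79%, and the letters TGATGNAA, bound by Atf4 with its C/EBP partners, were in none of the 8 genes and in 3.97% of all windows. The heat shock element and ETS matches of Hspd1 and Hspe1 are the same bases of their shared interval, counted for each gene. In Clpp the heat shock and ETS matches overlap each other. The members are counted as genes and the percentages are of windows, so they are not like for like, and enrichment was not tested. These are matches of letters and not measured binding sites.

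The 10 transcripts differed in level by an order of magnitude, and the order of their means was the same in both groups. TPM values are per transcript length, so levels of different genes can be compared. In LrpprcWT the order ran from Hspa9 (249 ± 22.5 TPM, SD, n = 3) and Hspd1 (153 ± 21.0) through Trap1 (94.7 ± 8.05), Dnaja3 (63.7 ± 5.57), Hspe1, Lonp1, Clpx and Clpp to Afg3l2 (23.2 ± 3.48) and Yme1l1 (16.7 ± 3.18). Hspa9 lay above 97.8% of the tested genes and Yme1l1 above 69.1%. Dnaja3 was above Hspe1, and Afg3l2 above Yme1l1, in all 6 libraries, although their LrpprcWT ranges overlapped. Hspe1 was above Lonp1 in 5 of 6 libraries, Lonp1 above Clpx in 5 of 6 and Clpx above Clpp in 4 of 6, so the order among these 4 did not hold in every library. Hspa9, Hspd1 and Trap1 did not overlap with each other in either group.

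**Figure D1:**
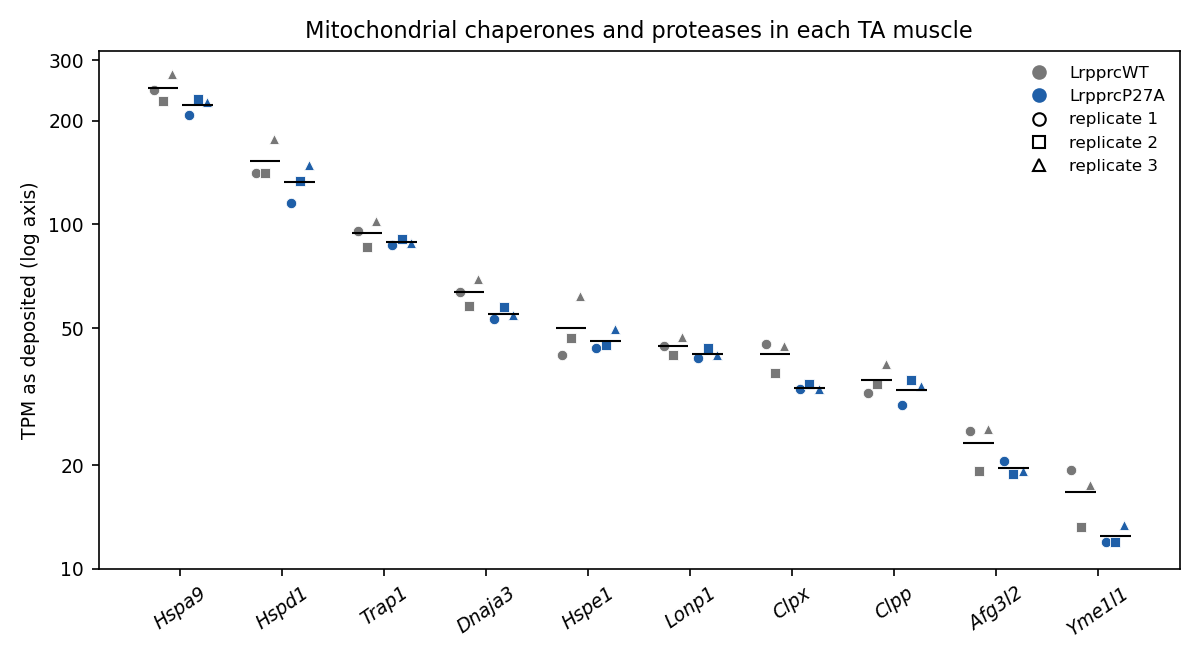
TPM (log axis) of the 10 genes in each of the 6 libraries, with symbols for replicate and bars for the group means. In Clpx and Dnaja3 all 3 LrpprcP27A libraries lay below all 3 LrpprcWT libraries, and in the other genes the groups overlapped. Of all tested genes 47.6% were lower without overlap on this scale.

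The comparison asks whether these transcripts differed between muscles with LrpprcP27A and with LrpprcWT. On the deposited TPM every one of the 10 had a lower mean in LrpprcP27A, by log2 differences from -0.39 in Yme1l1 to -0.07 in Lonp1, with a median of -0.18. Of all tested genes 88.0% had a difference below 0 on this scale. No member passed the test, and the limma adjusted p ran from 0.0707 to 0.587. At an unadjusted p under 0.05 there were 2, Clpx and Yme1l1, both lower, where 44.2% of all genes were lower and 2.59% higher at that threshold. Among all tested genes, 23.3% were called lower and 1.34% higher after adjustment. Kruskal-Wallis tests and a linear model without moderation also called 0 members, but at this sample size they called 0 and 1 of all 11611 genes. Of the 10 differences, 9 lay above the median of all genes of -0.32. So did 24 of 26 nuclear genes of mitochondrial energy metabolism and 12 of 13 other mitochondrial proteases and peptidases. Without the filter on mean TPM the median of all genes was -0.16, and 4 of the 10 lay above it. The members' summed share of nuclear coding TPM was 0.137% ± 0.00358 (SD, n = 3) in LrpprcWT and 0.139% ± 0.00448 in LrpprcP27A.

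With the replicate number as a block, 2 members were called lower, Clpx and Yme1l1, and none higher. Under that fit 48.4% of all genes were called lower and 2.69% higher, so 2 of 10 is below the share of all genes. After median-of-ratios scaling the sign turned: 9 of the 10 means were higher in LrpprcP27A, with a median of 0.19, and only Yme1l1 stayed below 0, at -0.04. Of all tested genes 50.8% were below 0 on that scale. No member was called on that scale by limma without the block, where 6.03% of all genes were lower and 5.25% higher and where Lonp1 and Trap1 were the members at an unadjusted p under 0.05, both higher, against 16.4% of all genes higher and 17.4% lower. With both the scaling and the block, 3 members were called higher, Lonp1, Clpp and Trap1, where 13.4% of all genes were higher and 15.8% lower. With the libraries rescaled to nuclear protein-coding genes, 5 members lay below 0 and 5 above, with a median of 0.0093. Of all tested genes 72.3% lay below 0 after that rescaling. The direction of these 10 transcripts thus depended on what the libraries were scaled to, and among these fits no member was called on more than 1 scale.

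**Figure D2:**
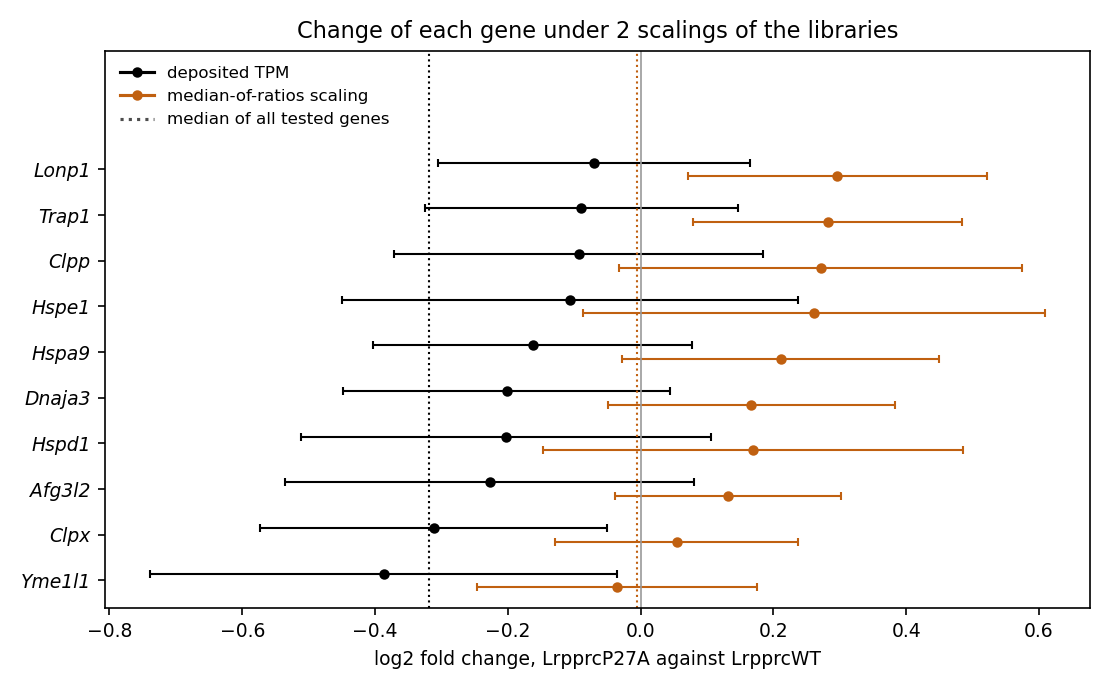
Log2 difference of LrpprcP27A against LrpprcWT for each of the 10 genes on 2 scales, with points for the limma estimates, bars for their 95% confidence intervals and dotted lines for the median of all tested genes on each scale. On the deposited TPM all 10 points lie below 0, and after median-of-ratios scaling 9 lie above 0.

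The chaperonin is a double ring of Hspd1 (Hsp60) closed by a lid of Hspe1 (Hsp10), in which imported proteins fold. Hspd1 (chr1:55116989-55171038, minus strand) stood at 141, 141 and 177 TPM in LrpprcWT and at 116, 134 and 149 TPM in LrpprcP27A. The groups overlapped, although Hspd1 was lower in LrpprcP27A in each of the 3 pairs. The log2 difference was -0.20 ± 0.14 (SE), with a 95% interval from -0.51 to 0.11 and a limma adjusted p of 0.25. Hspe1 (chr1:55127260-55130476, plus strand) stood at 41.7, 46.9 and 61.8 TPM in LrpprcWT and at 43.7, 44.5 and 49.7 TPM in LrpprcP27A. Its highest LrpprcWT library, replicate 3, set the sign: the log2 difference was -0.11 ± 0.15 (limma adjusted p = 0.576), and 0.051 without that library. After median-of-ratios scaling Hspd1 was at 0.17 (limma adjusted p = 0.404) and Hspe1 at 0.26 (limma adjusted p = 0.254).

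Both genes share the interval printed above, and 143 of the 1781 annotated exon bases of Hspe1 also lie in Hspd1 on the opposite strand. The library kit does not mark strand, so reads from those bases cannot be assigned. Hspe1 over Hspd1 was 0.297, 0.332 and 0.348 in LrpprcWT and 0.378, 0.332 and 0.333 in LrpprcP27A. A ratio of 2 genes of one library does not depend on how the library is scaled. The groups overlapped, and the ratio was higher in replicate 1, about equal in replicate 2 and lower in replicate 3 (mean log2 difference 0.096, two-sided exact permutation p = 0.4, n = 3 and 3).

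Hspa9 (mortalin, mtHsp70) pulls proteins through the import channel and folds them in the matrix, and Dnaja3 (Tid1) is the J-domain protein that hands it unfolded clients. Hspa9 (chr18:35070465-35087750, minus strand), the most abundant of the 10, stood at 245, 229 and 273 TPM in LrpprcWT and at 208, 232 and 227 TPM in LrpprcP27A. The groups overlapped through replicate 2, whose LrpprcP27A library was slightly above its LrpprcWT library. The log2 difference was -0.16 ± 0.11, with an interval from -0.40 to 0.078 (limma adjusted p = 0.238), and after median-of-ratios scaling 0.21 (limma adjusted p = 0.189). Dnaja3 (chr16:4457853-4528239, plus strand) stood at 63.5, 58.1 and 69.3 TPM in LrpprcWT and at 53.2, 57.6 and 54.5 TPM in LrpprcP27A. The groups did not overlap, by a margin of less than 1 TPM in replicate 2, and 47.6% of all tested genes were lower without overlap on this scale. The log2 difference of Dnaja3 was -0.20 ± 0.11 (limma adjusted p = 0.164), and after median-of-ratios scaling 0.17 (limma adjusted p = 0.243).

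Dnaja3 shares 160 exon bases with Vasn on its own strand and 1413 of its 9587 with Nmral1 on the other strand, and Nmral1 itself was at 1.64 TPM in LrpprcWT and 1.25 TPM in LrpprcP27A. The ratio of Dnaja3 over Hspa9 was the most even of those computed, at 0.256 ± 0.00302 (SD, n = 3) in LrpprcWT and 0.248 ± 0.00778 in LrpprcP27A. It was lower in all 3 pairs by small amounts (mean log2 difference -0.042, two-sided exact permutation p = 0.3, n = 3 and 3).

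Relatives of Hspa9 and Dnaja3 outside mitochondria varied more between libraries, apart from Dnaja2. The cytosolic Hsp70 Hspa8 was at 661 ± 180 against 471 ± 112 TPM (log2 difference -0.48 ± 0.21, limma adjusted p = 0.107). The Hsp70 of the endoplasmic reticulum (ER), Hspa5 (BiP), was at 122 ± 59.2 against 66.7 ± 16.9 TPM (-0.78 ± 0.30, limma adjusted p = 0.0802). Both overlapped between groups and neither passed the test, and with the replicate block both were called lower (limma adjusted p = 0.00275 and 1.17e-04). After median-of-ratios scaling they were at -0.10 and -0.41 (limma adjusted p = 0.735 and 0.320, and 0.339 and 0.0294 with the block). The cytosolic J-domain proteins Dnaja1 and Dnaja2 had log2 differences of -0.56 and -0.16 (limma adjusted p = 0.229 and 0.233, and 0.00161 and 0.240 with the block). After scaling they were at -0.21 and 0.21 (limma adjusted p = 0.695 and 0.173, and 0.107 and 0.0822 with the block). The differences between these genes and the members were not tested.

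Trap1 is the Hsp90 of the matrix. Trap1 (chr16:3856215-3895716, minus strand) stood at 95.8, 86.1 and 102 TPM in LrpprcWT and at 86.9, 91.0 and 88.3 TPM in LrpprcP27A. The groups overlapped, and replicate 2 went the other way from replicates 1 and 3. The log2 difference was -0.09 ± 0.10, with an interval from -0.33 to 0.15 (limma adjusted p = 0.489). After median-of-ratios scaling Trap1 read 78.5, 88.9 and 81.8 in LrpprcWT and 97.3, 107 and 98.6 in LrpprcP27A, without overlap, and 19.6% of all tested genes were higher without overlap on that scale. The log2 difference there was 0.28 (limma adjusted p = 0.0717, and 0.0282 with the replicate block). The cytosolic Hsp90 genes had deposited differences of -0.54 ± 0.46 for Hsp90aa1 and -0.17 ± 0.15 for Hsp90ab1 (limma adjusted p = 0.349 and 0.378, and 0.00299 and 0.232 with the replicate block), and scaled differences of -0.18 and 0.21 (limma adjusted p = 0.807 and 0.305, and 0.302 and 0.10 with the block). The ER member Hsp90b1 fell, from 81.7 ± 26.5 to 45.4 ± 9.27 TPM (log2 difference -0.80 ± 0.23, limma adjusted p = 0.0397), and after median-of-ratios scaling it was at -0.43 (limma adjusted p = 0.144, and 0.0114 with the block). Trap1 over Hspd1 was 0.622 ± 0.0538 in LrpprcWT and 0.675 ± 0.0800 in LrpprcP27A, overlapping, and higher in each pair (mean log2 difference 0.11, two-sided exact permutation p = 0.5, n = 3 and 3). Of the exon bases of Trap1, 1674 of 11360 lie in Dnase1 on the other strand, and Dnase1 averaged 0.0054 TPM in LrpprcWT and 0.022 TPM in LrpprcP27A.

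Lonp1 is an ATP-dependent protease that removes oxidised and misfolded matrix proteins. Lonp1 (chr17:56921291-56933980, minus strand) stood at 44.3, 41.8 and 47.0 TPM in LrpprcWT and at 41.0, 43.7 and 41.8 TPM in LrpprcP27A. Its groups overlapped and it had the smallest difference of the 10, -0.07 ± 0.10 (interval -0.31 to 0.16, limma adjusted p = 0.587). After median-of-ratios scaling it did not overlap between groups and its difference was 0.30, the largest of the 10 on that scale (limma adjusted p = 0.0817, and 0.0250 with the replicate block). Of all tested genes 19.6% were higher without overlap there. Lonp1 shares 215 of its 5299 exon bases with the ribosomal protein gene Rpl36 on the other strand, which stood at 499 ± 97.2 against 422 ± 2.01 TPM.

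The other matrix protease is built of a barrel of Clpp, which cuts, and a ring of Clpx, which unfolds the client and feeds it in. Clpp (chr17:57296971-57303369, plus strand) stood at 32.3, 34.3 and 39.4 TPM in LrpprcWT and at 29.9, 35.3 and 33.9 TPM in LrpprcP27A. The groups overlapped, with a log2 difference of -0.09 ± 0.12 (limma adjusted p = 0.543), and 0.27 after median-of-ratios scaling (limma adjusted p = 0.186, and 0.0327 with the replicate block). Clpx (chr9:65201540-65239568, plus strand) stood at 44.8, 37.0 and 44.5 TPM in LrpprcWT and at 33.2, 34.4 and 33.2 TPM in LrpprcP27A. The 3 LrpprcP27A values were nearly equal and all lay below the lowest LrpprcWT value, in replicate 2. Of all tested genes 47.6% were lower without overlap on this scale. The log2 difference of Clpx was -0.31 ± 0.11, with an interval from -0.57 to -0.05 (limma adjusted p = 0.0707). It passed with the replicate block (limma adjusted p = 0.0433), and after median-of-ratios scaling it was 0.054 (limma adjusted p = 0.654), with overlapping groups. Clpx is the only one of the 10 that shares no exon base with another annotated gene, and Clpp shares 285 of 1742 with the annotated gene Gm33509 on the other strand.

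Clpx over Clpp had the largest difference of the 6 ratios with all libraries in. It was 1.39, 1.08 and 1.13 in LrpprcWT and 1.11, 0.975 and 0.981 in LrpprcP27A. The ratio was lower in LrpprcP27A in each of the 3 pairs. The groups overlapped because LrpprcWT replicate 2 (1.08) lay below LrpprcP27A replicate 1 (1.11). The mean log2 difference was -0.22 (two-sided exact permutation p = 0.2, n = 3 and 3, and exact sign-flip permutation p = 0.25 over 3 pairs), and without LrpprcWT replicate 1 it was -0.11, smaller than that of Trap1 over Hspd1 (0.18). Lonp1 over Clpp was 1.26 ± 0.0954 in LrpprcWT and 1.28 ± 0.0770 in LrpprcP27A (mean log2 difference 0.024, two-sided exact permutation p = 0.6, n = 3 and 3). The smallest p these designs allow is 0.1 for 3 against 3 and 0.25 for 3 pairs, so no ratio could pass 0.05, and over the 6 ratios the adjusted exact p was 0.6 for each.

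**Figure D3:**
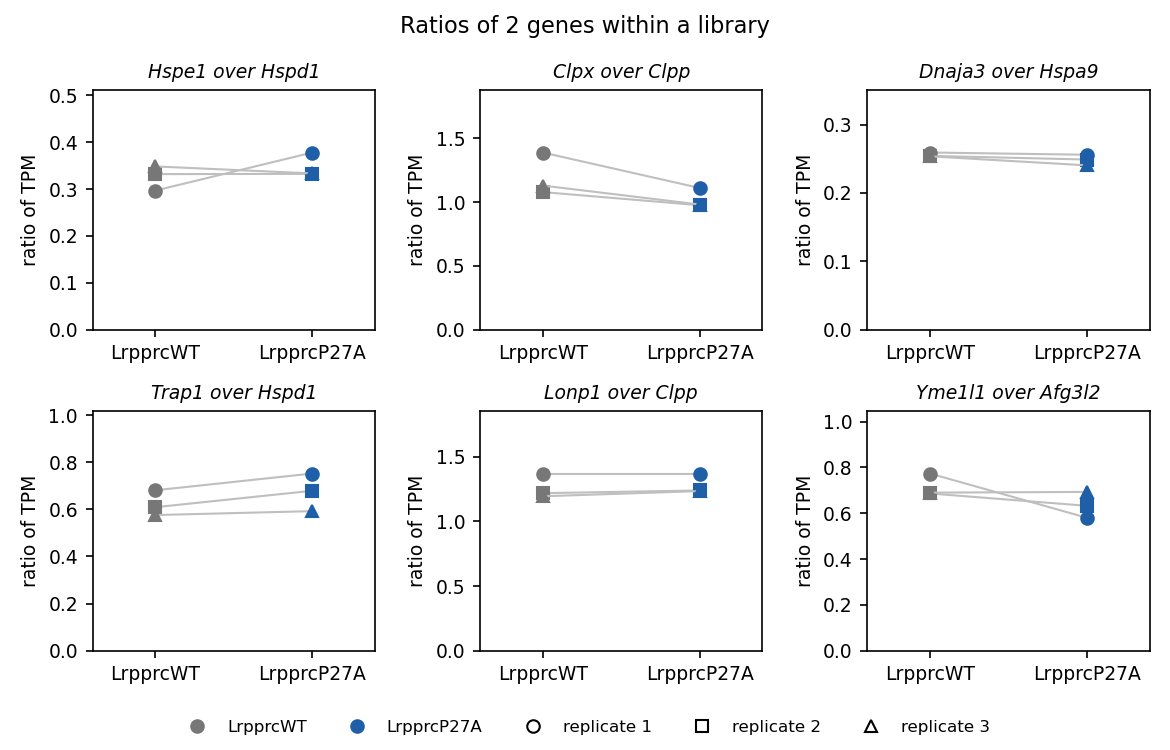
Ratios of 2 genes of one library (TPM over TPM, axes from 0) in LrpprcWT and LrpprcP27A, with lines joining libraries of the same replicate number. Clpx over Clpp falls along all 3 lines, Dnaja3 over Hspa9 lies between 0.240 and 0.259 in all 6 libraries, and Hspe1 over Hspd1 has lines in both directions.

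Afg3l2 and Yme1l1 are ATP-dependent metalloproteases of the inner membrane, Afg3l2 with its active site towards the matrix and Yme1l1 towards the intermembrane space. Afg3l2 (chr18:67535762-67582318, minus strand) stood at 25.1, 19.2 and 25.4 TPM in LrpprcWT and at 20.6, 18.9 and 19.3 TPM in LrpprcP27A. LrpprcWT replicate 2 lay among the LrpprcP27A libraries, and the other LrpprcWT libraries lay above them. The log2 difference was -0.23 ± 0.14 (interval -0.54 to 0.081, limma adjusted p = 0.203), and 0.13 after median-of-ratios scaling (limma adjusted p = 0.243). Afg3l2 shares 1012 of its 13865 exon bases with Tubb6 on the other strand. Tubb6 fell, from 52.5 ± 21.6 to 13.5 ± 4.57 TPM (log2 difference -1.84 ± 0.34, limma adjusted p = 0.0167), and the part of those reads in the value of Afg3l2 was not tested. The subunits that assemble with Afg3l2 or resemble it, Spg7 and Afg3l1, had differences near 0 on the deposited scale, at -0.0095 ± 0.10 and 0.029 ± 0.11 (limma adjusted p = 0.941 and 0.832). After median-of-ratios scaling they were at 0.36 and 0.39 (limma adjusted p = 0.0598 and 0.0452, and 0.0245 and 0.0142 with the replicate block).

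Yme1l1 (chr2:23046034-23089281, plus strand) stood at 19.4, 13.2 and 17.5 TPM in LrpprcWT and at 11.9, 11.9 and 13.4 TPM in LrpprcP27A. It had the largest difference of the 10, -0.39 ± 0.15 (interval -0.74 to -0.04, limma adjusted p = 0.0858), and it was lower in each of the 3 pairs, by 0.66, 0.14 and 0.37 on the log2 scale. The groups overlapped because LrpprcWT replicate 2 lay just under LrpprcP27A replicate 3. Yme1l1 passed with the replicate block (limma adjusted p = 0.0221). After median-of-ratios scaling its difference was -0.04 (limma adjusted p = 0.810). Yme1l1 over Afg3l2 was 0.717 ± 0.0493 in LrpprcWT and 0.635 ± 0.0566 in LrpprcP27A, lower in replicates 1 and 2 and about equal in replicate 3 (mean log2 difference -0.18, two-sided exact permutation p = 0.3, n = 3 and 3).

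The pairs differed among themselves. In replicate 1, 9 of the 10 members were lower in LrpprcP27A (median -0.24, against -0.39 over all genes). In replicate 3 all 10 were lower (median -0.29, against -0.40), while in replicate 2 there were 6 lower and 4 higher (median -0.020, against -0.16). LrpprcWT replicate 2 had the highest share of mitochondrial-genome TPM of its group, 45.2%, and its median-of-ratios factor, 0.969, lay between those of its group, 1.22 and 1.25, and those of LrpprcP27A, 0.847 to 0.895. Without that library, 4 members were called lower, Clpx, Dnaja3, Afg3l2 and Yme1l1, where 59.5% of all genes were lower and 2.62% higher.

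Over the 6 libraries after median-of-ratios scaling, the members did not all vary alike. The log2 levels of Lonp1 and Trap1 had a Pearson r of 0.99 (0.97 on the deposited TPM) and those of Hspa9 and Clpp 0.99 (0.84). Hspe1 and Yme1l1 had -0.61 (0.27 on the deposited TPM), so that sign also depended on the scaling. The libraries share mice and group, so these values describe the 6 libraries only. The tested genes outside the 10 whose profile was most like the members' mean profile, by Pearson r over the same 6 libraries, were Stim2, Sgsm3, Mrpl16, Sdr39u1 and Dnajc12, with r from 0.994 to 0.997. They were picked for the highest r among all tested genes outside the 10, so their high r follows from that choice. Mrpl16 codes for a protein of the mitochondrial ribosome, and Dnajc12 for a J-domain protein. A likeness of function between these genes and the members was not tested.

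Among other genes of mitochondrial protein quality control, the deposited differences were also mostly below 0 and few passed the test. Of 61 tested genes, 54 had a lower mean in LrpprcP27A, where 88.0% of all tested genes had a difference below 0. Among the 61, 5 were called lower and none higher. The unadjusted limma p was under 0.05 for 19 that were lower and 1 that was higher, where 44.2% of all genes were lower and 2.59% higher. After adjustment 23.3% of all genes were called lower and 1.34% higher. With the replicate block 21 of the 61 were called lower and 1 higher, where 48.4% of all genes were lower and 2.69% higher. The co-chaperones and scaffolds, among them the nucleotide exchange factors of Hspa9 (Grpel1, Grpel2) and the prohibitins that surround Afg3l2, had 0 of 12 called, 6 lower with the replicate block, and a median of -0.27. Grpel1 stood at 38.3 ± 4.79 against 29.8 ± 0.410 TPM (-0.34 ± 0.12, limma adjusted p = 0.0651, and 0.0295 with the block), and was at 0.022 after median-of-ratios scaling (limma adjusted p = 0.855, and 0.824 with the block). Of 30 import genes 4 fell, 12 with the block: Timm44, which tethers Hspa9 to the import channel (48.6 ± 8.28 to 33.4 ± 1.92 TPM, -0.52 ± 0.14, limma adjusted p = 0.0362), the insertase Oxa1l (-0.48 ± 0.15, limma adjusted p = 0.0448), and the outer membrane subunits Tomm22 and Tomm6 (-0.48 and -0.38). Of 13 tested other proteases and peptidases 1 fell, Htra2 of the intermembrane space (12.8 ± 2.40 to 8.29 ± 0.585 TPM, -0.56 ± 0.16, limma adjusted p = 0.0374). None of these 5 genes was called after median-of-ratios scaling, where Timm44 was at -0.15 and Htra2 at -0.21. On that scale 16 of the 61 genes were below 0, and 4 were called higher, Clpb, Timm17a, Gfer and Afg3l1. Over all genes 50.8% were below 0 there, 5.25% were called higher and 6.03% lower. Tomm22, Tomm6 and those 4 are named because of their values.

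The regulators described for the mitochondrial stress response had a median of -0.076. Of these, 0 of 6 were called, where 23.3% of all genes were lower and 1.34% higher. With the replicate block 2 were called lower, where 48.4% of all genes were lower and 2.69% higher. After median-of-ratios scaling their median was 0.27, 1 of the 6 was below 0 and none was called. Over all genes 50.8% were below 0 on that scale, 6.03% were called lower and 5.25% higher. Atf5 and Hsf1 are given on the deposited scale only. Atf4 stood at 113 ± 9.44 TPM in LrpprcWT and 111 ± 9.32 TPM in LrpprcP27A (-0.016 ± 0.11, limma adjusted p = 0.912). With median-of-ratios scaling and the block together, 2 of the 6 were called higher and none lower, Atf4 among them (0.36, limma adjusted p = 0.0187). Under that fit 13.4% of all genes were called higher and 15.8% lower. Atf5 stood at 71.7 ± 14.2 and 74.2 ± 7.05 TPM (0.064 ± 0.16, limma adjusted p = 0.748). Hsf1, the main heat shock factor, stood at 9.96 ± 0.891 and 9.06 ± 0.393 TPM (-0.12 ± 0.12, limma adjusted p = 0.437). Ddit3 was not analysed here. The 95% intervals of the 10 members together ran from -0.74 to 0.24 on the deposited scale and from -0.25 to 0.61 after median-of-ratios scaling.

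Chaperones of other compartments and other nuclear genes of mitochondria give the comparison. Over all tested genes 23.3% were called lower and 1.34% higher. Of 26 genes of energy metabolism 1 fell, the complex III subunit Uqcrc2 (-0.38 ± 0.11, limma adjusted p = 0.0417), and the median was -0.23. With the replicate block 6 were called lower, where 48.4% of all genes were lower and 2.69% higher. After median-of-ratios scaling the median of these 26 genes was 0.145 and none was called. Of 37 cytosolic chaperones 5 fell, 23 with the block (median -0.35), led by Dnajb1 (11.7 ± 5.99 to 4.44 ± 0.794 TPM, -1.14 ± 0.28, limma adjusted p = 0.0288) and Hspa2 (-1.12 ± 0.21, limma adjusted p = 0.0163). Of 19 ER chaperones 10 fell, 16 with the block (median -0.65), led by the collagen chaperone Serpinh1 (162 ± 57.5 to 66.8 ± 20.9 TPM, -1.25 ± 0.30, limma adjusted p = 0.0262) and by Manf (-1.04 ± 0.29, limma adjusted p = 0.0362). Of the cytosolic genes Hspa2 was the only one still called lower after median-of-ratios scaling (limma adjusted p = 0.0329), and Uqcrc2 was at -0.0065 there. In the cytosolic list 1 gene was called higher there, and with the block added 3 were called lower and 2 higher. Serpinh1 was at -0.88 and Manf at -0.70 on that scale (limma adjusted p = 0.0627 and 0.102, and 0.00498 and 0.00886 with the block), and Dnajb1 at -0.81 (0.0764, and 0.0142 with the block). On that scale 0 of the 19 ER chaperones were called, where 6.03% of all genes were lower and 5.25% higher. With the scaling and the replicate block 10 were called lower and 1 higher, where the 10 mitochondrial members had 0 lower and 3 higher. Over all genes 15.8% were lower and 13.4% higher under that fit. The difference between the lists was not tested.

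**Figure D4:**
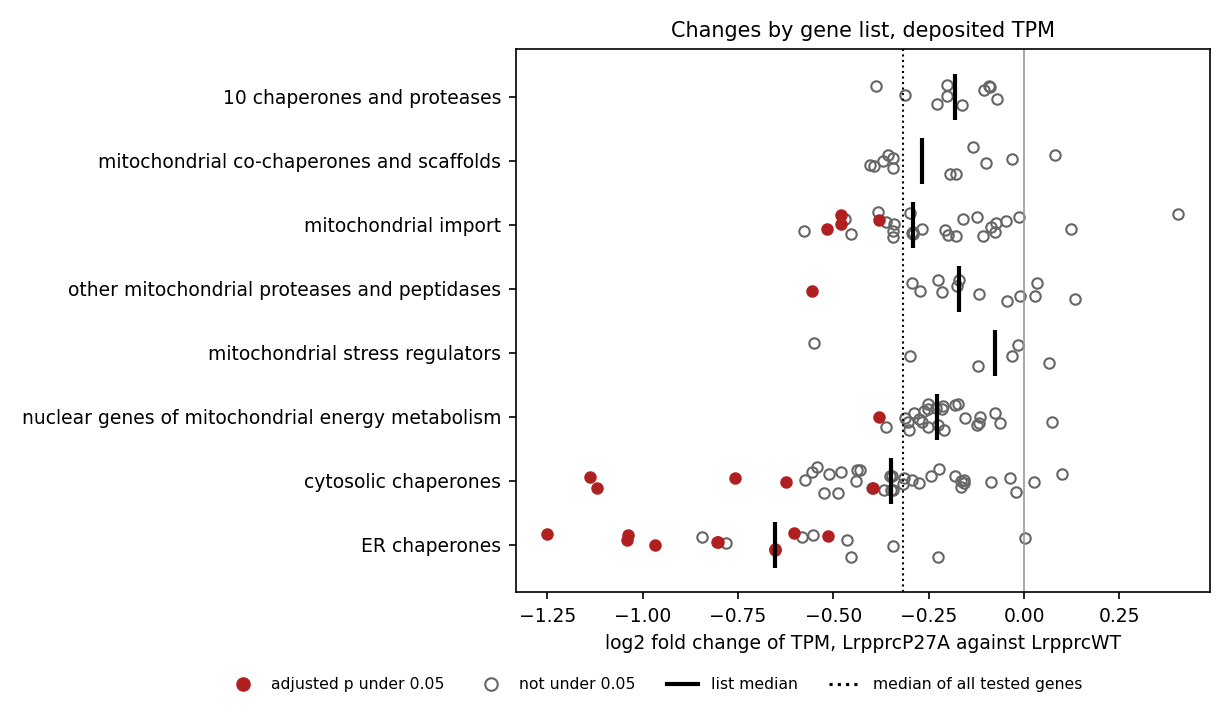
Log2 difference of deposited TPM, LrpprcP27A against LrpprcWT, for each gene of the 8 lists (points, filled where the limma adjusted p was under 0.05), with list medians as bars and the median of all tested genes as a dotted line. The median of the 10 chaperones and proteases, -0.18, lies to the right of the dotted line at -0.32, and that of the ER chaperones, -0.65, to its left.

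Markers of other cells moved with the groups. All 9 tested macrophage markers fell, from a summed 331 to 665 TPM in LrpprcWT to 111 to 228 TPM in LrpprcP27A, and all 8 fibroblast markers, from 1007 to 1722 TPM to 255 to 581 TPM. As a share of nuclear coding TPM they were lower too, with 0.0631% to 0.109% against 0.0221% to 0.0477% for macrophages and 0.192% to 0.309% against 0.0507% to 0.121% for fibroblasts. Satellite cell markers had 4 of 5 called lower and endothelial markers 3 of 7, while adipocyte and Schwann cell markers had 1 of 4 each and red blood cell, T and B cell markers 0 of 5 and 0 of 1. Over all tested genes 23.3% were called lower on the deposited TPM. The myofibre markers summed to 128900 to 142900 TPM in LrpprcWT and 117700 to 132600 TPM in LrpprcP27A, with 2 of 12 called lower and no marker at 0, as in muscle tissue. As a share of nuclear coding TPM the myofibre markers were at 23.1% to 25.7% in LrpprcWT and 24.6% to 26.3% in LrpprcP27A. In whole muscle, fewer cells of a type and less RNA per cell cannot be told apart, and the part of these cells in the values of the 10 genes was not tested.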

How the data were processed

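RNA-seq was done on 6 TA muscles (3 per group). Per the study's methods, libraries were made with the TruSeq RNA Sample Prep kit and sequenced in pairs; that kit is not a stranded one. After trimming for quality and length, the authors mapped the reads with CLC Genomics Workbench on GRCm39. The deposited TPM values sum to 1000000 per library, keep no depth and were not normalized further. The submitters' processing notes name GRCm39 and mm39. How reads in overlapping genes were counted is not given in the sources used here.

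From the deposited TPM, log2(TPM + 1) of the 11611 genes with a mean of at least 1 was compared with limma 3.58.1 in R 4.3.3 (moderation with trend), adjusted by Benjamini-Hochberg over all of them, and called at an adjusted p under 0.05. Fold changes are on the log2(TPM + 1) scale, which understates low genes. Within-library ratios were compared by two-sided exact permutation. The unpaired comparison follows the study's methods. A fit with the replicate number as a block was the alternative: deviations of equally numbered libraries correlated at 0.36, 0.53 and 0.36, and of others at 0.0040 or less. The pairing comes from the shared library numbers and the contralateral design, and the number is not stated outright to be the mouse. Other alternatives were another pseudocount (0.1), other filters, other tests, 3 scalings and each library left out. The fit was tested on simulated data.

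Members and lists were chosen with earlier results of these data known. Named genes were the 10 members, their relatives in other compartments, Lrpprc, copies (not reported here), up to 2 called genes per direction of each list, and the 5 most alike genes. Positions are from GENCODE on GRCm39 and promoter windows from RefSeq, placed on GRCm39 by exact match. Sequences on chromosome 18 are not reported here.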

Additional observations from a re-analysis of the deposited data

How the results depend on the processing

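The sign of most members depended on the scaling. After median-of-ratios scaling, with or without the replicate block, the log2 differences turned positive in Hspd1 (0.17), Hspe1 (0.26), Hspa9 (0.21), Lonp1 (0.30), Clpp (0.27), Clpx (0.054), Dnaja3 (0.17), Trap1 (0.28) and Afg3l2 (0.13). After quantile normalization they turned positive in Hspd1 (0.039), Hspe1 (0.16), Hspa9 (0.062), Lonp1 (0.20), Clpp (0.21), Dnaja3 (0.045), Trap1 (0.18) and Afg3l2 (0.092). After rescaling to nuclear protein-coding genes, and with the replicate block added to it, a choice made after the data were seen, they turned positive in Hspe1 (0.083), Hspa9 (0.030), Lonp1 (0.12), Clpp (0.094) and Trap1 (0.10). When a library was left out, Hspe1 ran from -0.23 to 0.051 (without LrpprcWT replicate 3), Hspd1 from -0.29 to -0.093, Hspa9 from -0.22 to -0.094, Lonp1 from -0.11 to -0.028, Clpp from -0.15 to -0.014, Clpx from -0.40 to -0.26, Dnaja3 from -0.26 to -0.14, Trap1 from -0.16 to -0.034, Afg3l2 from -0.35 to -0.16 and Yme1l1 from -0.54 to -0.28. The pseudocount, the filters and the other tests turned none.

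Members called lower numbered 0, with 2 under the replicate block and 0 to 4 when a library was left out, the 4 without LrpprcWT replicate 2. Members called higher numbered 0, with 3 under the replicate block with median-of-ratios scaling. The 5 other mitochondrial quality control genes called lower became 21 under the paired fit with the replicate block, 2 in limma without trend, and 0 without the filter, in the linear model without moderation, by Kruskal-Wallis and after any of the 3 scalings, also with median-of-ratios scaling and the block, while nuclear rescaling with the block gave 5. Kruskal-Wallis and the linear model without moderation called 0 and 1 of all genes, so they could not keep such calls. Leaving out a library gave 0 to 27, with 27 without LrpprcWT replicate 2 and 0 without any one of the others. Over all genes 23.3% were called lower in the unpaired comparison, 48.4% with the replicate block and 59.5% without LrpprcWT replicate 2. Nuclear rescaling with the block called 3321 of the 11611 genes lower. Those called higher, 0 in the unpaired comparison, became 1 with the replicate block, 1 after nuclear rescaling, 4 after median-of-ratios scaling, 2 after quantile normalization, 15 with that block and median-of-ratios scaling, 5 with the block and nuclear rescaling, and 0 to 1 when a library was left out. The log2 ratio of Lonp1 over Clpp ran from -0.025 to 0.085 when a library was left out. The causes were not tested. TPM values hold no depth, so no limit of detection can be given.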
